A study of Mus musculus with 18 samples.

Results

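The genes described here are the replication-dependent histone genes, taken as every row of the deposited expression table whose symbol starts with Hist1h, Hist2h, Hist3h or Hist4h. There were 68 such rows of 22019 genes: 55 Hist1h rows on chromosome 13, which but for Hist1h2al lie in 1 large cluster, 10 Hist2h rows on chromosome 3, 2 Hist3h rows on chromosome 11 and 1 Hist4h row on chromosome 6. By the protein they encode, 6 were linker histones H1, 19 were H2A, 18 were H2B, 12 were H3 and 13 were H4. The last 4 kinds form the core of the nucleosome, around which DNA is wrapped, and H1 binds the DNA between nucleosomes.

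Replication-dependent histone genes supply new histones while DNA is copied, and their mRNAs normally build up in S phase and are degraded when replication ends. Most of these genes lack introns, and their mRNAs are the known exception among animal mRNAs in that they usually end without a poly(A) tail. In its place the 3′ end carries a short stem-loop that is bound by the stem-loop binding protein Slbp, which takes part in processing, translation and decay of the mRNA. Some histone genes also give polyadenylated transcripts that read past the stem-loop, in particular in cells that divide slowly or differentiate.

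The cells were NIH 3T3 mouse fibroblasts, a line that grows in culture, with a Tet-On construct switched on in all groups by 1 μg/ml doxycycline for 48 hr on fibronectin-coated polyacrylamide gels. KDEL cells, the control, made a GFP kept in the endoplasmic reticulum, and SUN1L cells made the lumenal part of SUN1, which is used to disrupt the LINC complex between nucleus and cytoskeleton. The 6 groups comprised 3 libraries each, which are referred to by their serial number. KDEL cells were libraries 4, 16 and 28 on the soft gel of 1 kPa and libraries 8, 20 and 32 on the stiff gel of 308 kPa. SUN1L cells were libraries 3, 15 and 27 on 1 kPa and libraries 7, 19 and 31 on 308 kPa. KDEL cells on 308 kPa were also kept with 25 μM Y27 in libraries 12, 24 and 36, or with 10 μM blebbistatin, an inhibitor of myosin II, in libraries 10, 22 and 34. The methods call the 3 libraries of a group biological replicates, the labels do not say that they came from separate cultures, and the p-values measure the spread between these libraries. Each construct was carried by a stable transduced population, and the KDEL cells alone had been enriched by sorting for GFP.

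Library 34 is not labelled as the other control libraries are. Its labels name an empty vector in place of the GFP construct, and while 1 of them names Y27 another names blebbistatin. It was kept with the blebbistatin group by the latter, and what is said of KDEL cells with blebbistatin includes it unless stated otherwise. Sun1 signal was between 2785 and 3799 in the control libraries, library 34 included, and between 38452 and 82617 in the SUN1L libraries. All 10 fibroblast markers looked for were above the lowest value in at least 3 libraries, although Lum averaged only 1.62. Of 12 markers of other cell types 9 passed the same limit, and they summed to between 337.9 and 692 per library against 591222 to 948415 for the fibroblast markers. Myod1 was at 1 throughout, and Epcam, Krt5, Ptprc, Adipoq, Gfap, Myog and Tubb3 averaged under 10. Cd68, Cdh1, Pecam1 and Cdh5 did not, and the highest value of any of the 12 was 311. The libraries held an estimated 12670000 to 19460000 read pairs, and 1 read pair was worth 1.70 to 2.49 units of signal. Libraries 3, 7 and 8 stood apart from the other 15 in the level of dividing-cell genes, which is taken up beside the rows it touches.

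The 3′ ends of the histone transcripts are shown because the libraries were made from RNA bound to oligo d(T), which holds on to poly(A) tails. In the GENCODE M1 transcripts, which were available for 55 of the 68 rows, a stem-loop was searched for after the stop codon: a stem of 6 bases that starts with GG, pairs with at most 1 mismatch and closes a loop of 4 bases that starts with TTT. It was found in 37 rows, 21 to 58 bases after the stop codon with a median of 31. Models that stop at the stop codon, such as those of Hist1h1b, Hist1h2al and Hist1h4k, could not show it. The most frequent form, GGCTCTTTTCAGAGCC, was present in 23 rows and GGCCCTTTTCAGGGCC in 6. The sequences below are from rows that the results turn on, 5′ to 3′ on the transcript with the stem-loop in capitals.
Hist1h1c: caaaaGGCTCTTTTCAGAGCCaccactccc
Hist1h2bg: ccaaaGGCTCTTTTCAGAGCCacccatact
Hist1h4i: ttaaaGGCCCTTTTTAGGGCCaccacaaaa
Hist2h4: ctaacGGCCCTTTTTAGGGCCaaccacagt
Hist1h4m: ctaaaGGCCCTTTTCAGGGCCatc
Hist1h4j: ctaaaGGTCCTTTTCAGGACCaccacatc
Hist3h2a: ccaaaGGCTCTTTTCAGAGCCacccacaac

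The transcript models of Hist1h4m and Hist1h4j stop 3 and 8 bases after the stem-loop, as a processed histone mRNA without a tail does. The models of Hist1h2bg and Hist1h4i run 155 and 150 bases past it, and those of Hist1h1c, Hist2h4 and Hist3h2a run 839, 1235 and 1487 bases past it. The rows that were counted can differ from these models. Hist1h4j spans 774 bases in the expression table against a model of 427, and Hist1h2bg 477 against 618. The models therefore do not show where such rows end. A hexamer that can direct polyadenylation, AATAAA or ATTAAA, lay in the last 40 bases of the model in 16 rows. The stretches around it are shown for 5 of them, with the hexamer in capitals, to set beside the stem-loops above.
Hist1h1c: atgcttctAATAAAaagcgtttagttttca
Hist1h2bc: gtatatatAATAAAtgtcatgtaaagcaaa
Hist2h2be: ttattattAATAAAgttaccgattagtttc
Hist2h4: atacataaAATAAAatctt
Hist3h2a: tctacaaaATTAAAggaagttccaatc

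No stem-loop of this form was found in the models of Hist1h2bc and Hist2h2be, both genes of H2B, whose longest models end beside such a hexamer. The models of Hist1h1c, Hist2h4 and Hist3h2a hold both elements. A match is a description of the model and does not show which end was used in these cells.

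Most histone genes were detected, at low values. The table holds linear normalized signals that never go below 1, and 64 of the 68 rows lay above 1 in at least 1 library, or 94.1% against 79.5% of all genes. Of the rows, 62 lay above 1 in at least 3 libraries, which was the condition for testing, and 33 in all 18 libraries. The last share was 48.5% for histone rows and 57.4% for all genes. Per library, 49 to 58 of the rows were above 1. Hist1h2ap, Hist1h2br, Hist1h2ba and Hist1h2aa were listed at 1 in every library, while Hist1h2bq was above 1 in 1 library and Hist1h2ao in 2. These 6 rows were not tested. In the models of Hist1h2br and Hist1h2bq, at most 2.44% of all windows of 50 bases occurred in no other coding gene. Few reads can be placed in such rows, so a value of 1 there does not show that the gene was silent.

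Higher limits left few rows. At a signal of at least 10 in all 18 libraries, 9 histone rows remained, or 13.2%, against 52.2% of all genes. At a limit of 5 the number was 16, or 23.5% against 54.1%. In at least 1 library 63.2% of histone rows reached 10, against 61.8% of all genes. Of the 55 Hist1h rows 22 were above 1 throughout, and of the 10 Hist2h rows 9. The mean signal of 45 rows was under 10, which corresponds to a few read pairs.

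All histone rows together made up a very small share of the libraries. Their signal summed to between 998.1 and 2383 per library, or 0.00286% to 0.00799% of all signal, and rested on an estimated 451 to 1314 read pairs. The sum was 1539 ± 388.9 in KDEL cells and 1730 ± 84.61 in SUN1L cells on 1 kPa (SD, n = 3), and 1650 ± 48.51 and 1838 ± 481 on 308 kPa. It was 1703 ± 167.9 with Y27 and 1288 ± 373.7 with blebbistatin. The lowest sum, 998.1, was that of library 34, and the highest, 2383, that of library 7. The ranges of all 6 groups met, so that the sums did not separate any group from the rest.

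A few genes carried most of this signal. The leading row, Hist1h1c, held 19.9% of the histone signal summed over all libraries, the leading 4 rows held 52.6% and the leading 9 rows 72.1%. Signal was not divided by transcript length, and the 13 rows that span over 1000 bases held 58%. For a value per 1000 bases, mean signal was divided by the span of the row, or by its GENCODE M1 exons where there were several. By this value Hist1h2bg led with 406.7 and Hist1h2bc with 273.8. They were followed by Hist1h1c with 207.2, Hist1h4m with 161.7, Hist1h4i with 115.8 and Hist1h2ak with 81.24. Hist2h2be, whose model is long, had 51.92 per 1000 bases.

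**Figure D1:**
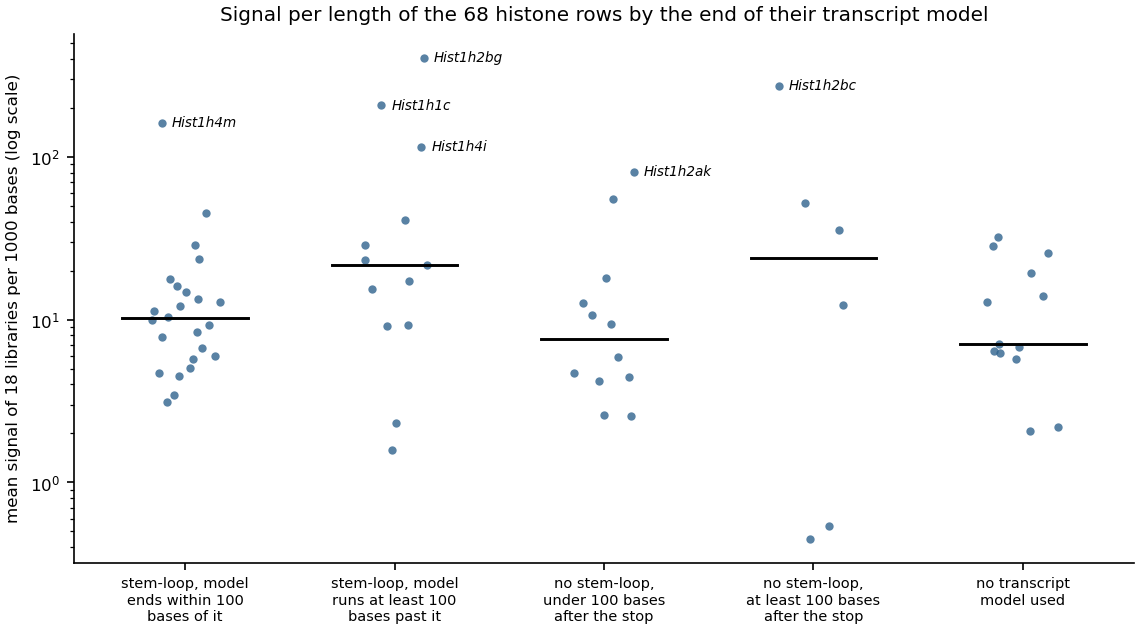
Mean signal over the 18 libraries per 1000 bases (vertical axis, log scale) of the 68 histone rows, 1 point per row, in 5 classes by the end of the GENCODE M1 transcript model. Bars are medians, and length is the span of the row, or its GENCODE M1 exons where there are several. Rows with a model that runs on for at least 100 bases have medians of 21.55 and 23.89, those with a short end 10.2 and 7.65, and all classes overlap. Span and model differ in length for some rows, so the medians do not compare the classes.

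Signal per length was then set against the ends of the transcript models. In 13 rows the model held the stem-loop and ran on for at least 100 bases, and these rows had a median of 21.55 per 1000 bases (range 1.573 to 406.7) and 48.2% of the histone signal. In 24 rows the model ended within 100 bases of the stem-loop, with a median of 10.2 (range 3.133 to 161.7) and 12.8% of the signal. Where no stem-loop was found, 6 rows with at least 100 bases after the stop codon had a median of 23.89 and 24.6% of the signal. The 12 such rows with a shorter end had a median of 7.65 and 5.33%. Several of these 12 models stop at or just after the stop codon, so the search could not find a stem-loop in them. The remaining 13 rows, with no model used here, held 9.05%. The ranges of the classes overlapped, and the difference between them was not tested. The class came from the model, while the length was often the span in the expression table, and these can differ. Hist1h1d, the row at the median of 21.55, spans 744 bases against a model of 3821. Hist1h2ac, of the same class, spans 476 against 2482. The medians per 1000 bases and the shares of signal therefore do not show whether the classes differ. Hist1h4m, with 161.7 per 1000 bases and a model that ends 3 bases after the stem-loop, was the leading row of the short-ended class.

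Near-identical sequence limits what a single row can say. Of all windows of 50 bases, the length of a read, in the model of Hist1h4m, 10.2% occurred in no other coding gene of GENCODE M1. The share was 50.3% for Hist1h2bg, 52.7% for Hist1h2bc, 52.9% for Hist1h4j, 59.8% for Hist1h4i and 61.2% for Hist1h2ak. It was 66% for Hist3h2a, 91.5% for Hist1h1c, 99% for Hist2h4 and 100% for Hist2h2be and Hist2h2bb. In 20 of the 55 rows it was under 50%. The authors removed reads of low mapping quality, which takes reads away from such windows, so values of rows such as Hist1h4m and its neighbour Hist1h4n, at 1.48 on average and 14.4% unique, are uncertain. In bulk samples of this kind, fewer cells in S phase and less histone mRNA per cell cannot be told apart.

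**Figure D2:**
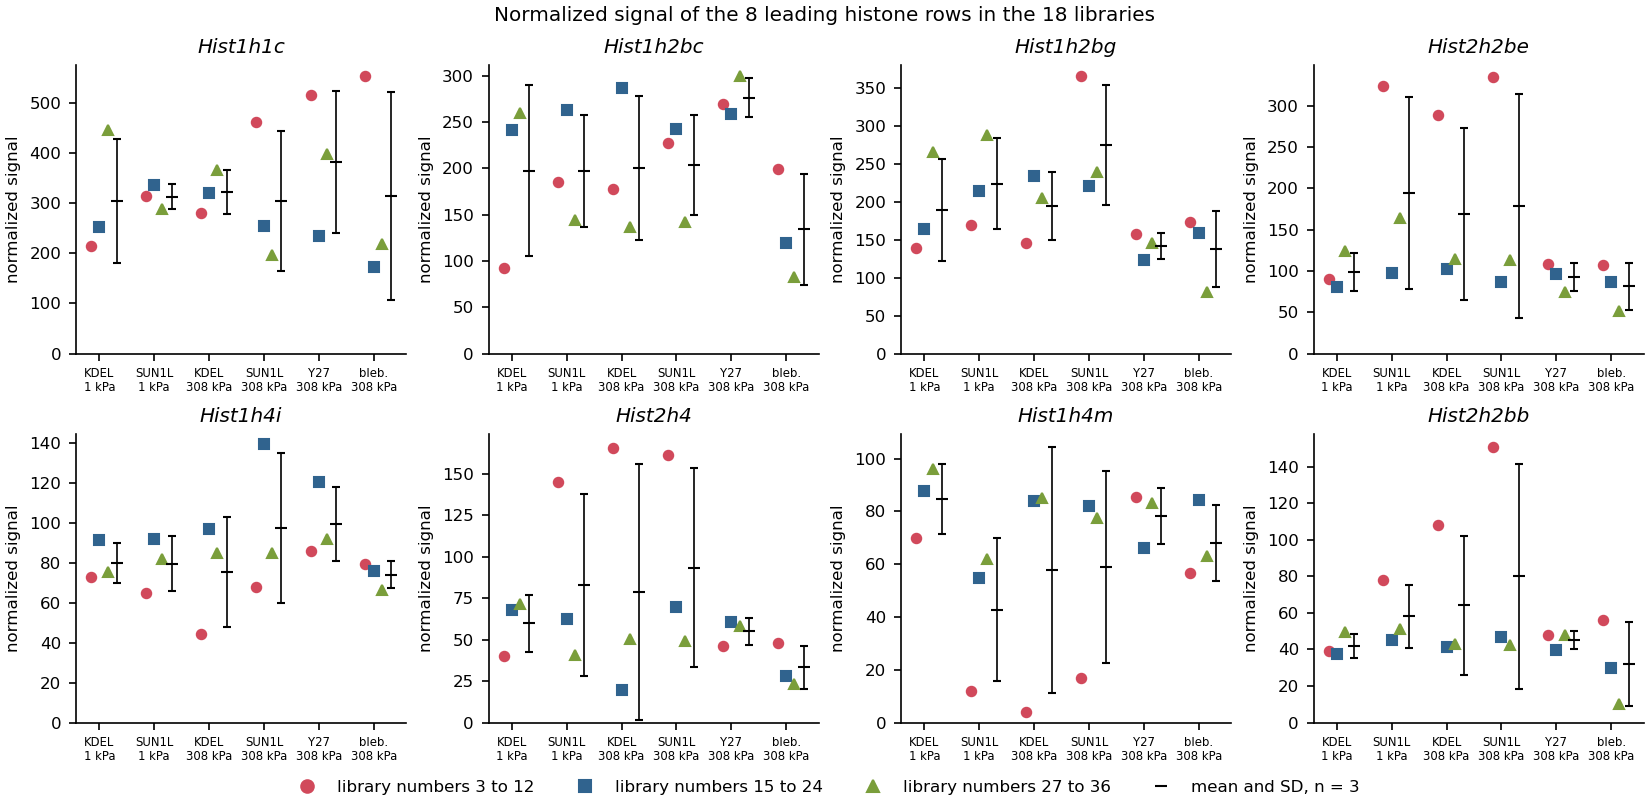
Normalized signal (vertical axis, linear, from 0) of the 8 histone rows with the highest mean log2 signal in the 6 groups; each point is 1 library, with colour and shape for 3 runs of library numbers, and the bar beside the points is the mean with SD, n = 3. Libraries 3, 7 and 8, the circles of SUN1L on 1 kPa, SUN1L on 308 kPa and KDEL on 308 kPa, are highest for Hist2h2be, Hist2h4 and Hist2h2bb and lowest for Hist1h4m.

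Hist1h1c, a linker histone gene on chromosome 13 from 23738808 to 23740367 (GRCm38, ENSMUSG00000036181), had signals of 213.9, 252.3 and 445.6 in KDEL cells and 313.7, 336.8 and 288.2 in SUN1L cells on 1 kPa. On 308 kPa it had 279.7, 320.6 and 366.5 in KDEL cells and 461.4, 253.5 and 196.8 in SUN1L cells. With Y27 the values were 514.5, 233.6 and 397.6, and with blebbistatin 552, 173 and 219. Within every group but SUN1L on 1 kPa and KDEL on 308 kPa, the highest library was at least 2 times the lowest, and all groups overlapped. The H1 total per library was therefore also broad, from 207 to 610.1.

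Hist1h2bc and Hist1h2bg encode H2B and lie on chromosome 13 from 23684199 to 23692488 (ENSMUSG00000018102) and from 23571408 to 23571884 (ENSMUSG00000058385). Hist1h2bc had 197.5 ± 91.84 in KDEL cells and 197.3 ± 60.28 in SUN1L cells on 1 kPa, and 200.4 ± 77.49 and 203.8 ± 54.2 on 308 kPa. With Y27 it had 269.3, 258.9 and 299.8, close together and within the range of untreated KDEL cells, of 136.9 to 286.7, apart from the highest. With blebbistatin it had 199.5, 119.7 and 82.74. Hist1h2bg had 138.8, 163.8 and 266.2 in KDEL cells and 169.5, 214.2 and 288 in SUN1L cells on 1 kPa, and 146.3, 234.1 and 204.7 against 366, 220.9 and 238.9 on 308 kPa. Its values were 157.5, 122.9 and 145.4 with Y27 and 174.1, 159.3 and 81.34 with blebbistatin, and the groups overlapped in every comparison.

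Hist1h4i, the leading H4 gene by signal (chromosome 13, 22040636 to 22041362, ENSMUSG00000060639), had 73.06, 91.27 and 75.24 in KDEL and 64.6, 91.91 and 81.66 in SUN1L cells on 1 kPa, and 44.34, 96.91 and 84.83 against 67.67, 139.6 and 84.76 on 308 kPa. With Y27 it had 86.08, 120.4 and 91.81 and with blebbistatin 79.39, 75.88 and 66.34. All of these groups overlapped with untreated KDEL cells on 308 kPa, where library 8 was the lowest of the 18.

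The Hist2h genes behaved differently from library to library. Hist2h2be, an H2B gene on chromosome 3 from 96221119 to 96223738 (ENSMUSG00000068854), had 323.5 in library 3, 334.6 in library 7 and 289.3 in library 8, and between 51.13 and 164.5 in the other 15. Within SUN1L cells on 1 kPa the values were 323.5, 97.17 and 164.5, within KDEL cells on 308 kPa 289.3, 102.6 and 114.9, and within SUN1L cells on 308 kPa 334.6, 87.29 and 113.8. KDEL cells on 1 kPa had 90.93, 80.89 and 124.6. So 1 library of each of 3 groups was high while its partners lay in the range of all others.

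Hist2h4, an H4 gene (chromosome 3, 96261682 to 96263311, ENSMUSG00000091405), showed the same 3 libraries on top, with 145.2, 161.3 and 165.6 in libraries 3, 7 and 8 and 19.67 to 71.51 elsewhere. Hist2h2bb, another H2B gene (chromosome 3, 96269721 to 96279001, ENSMUSG00000050936), had 77.95, 150.8 and 108 in these libraries and 10.28 to 55.87 elsewhere. Of the 33 rows above 1 throughout, Hist2h2ab and Hist2h2aa2 also had their highest 3 values there, and no Hist1h row did. The Hist2h total was 713.0, 844.4 and 758.4 in libraries 3, 7 and 8 and between 115.2 and 364.8 in the other 15. That was 39.3%, 35.4% and 44.7% of all histone signal, against 11.5% to 21.9%.

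Hist1h4m and Hist1h2ak went the other way. Hist1h4m, an H4 gene (chromosome 13, 21811746 to 21812147, ENSMUSG00000069306), had 11.81 in library 3, 16.94 in library 7 and 4.066 in library 8, and 54.6 to 96.22 in the other 15. Hist1h2ak, the H2A gene with the highest mean (chromosome 13, 21753435 to 21753827), had 2.335, 8.478 and 7.872 in these libraries and 19.87 to 59.57 elsewhere. The Hist1h total did not set these libraries apart, with 1036, 1470 and 898.4 among 837.9 to 1556. The pattern was seen in the values first and is given as a description.

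**Figure D3:**
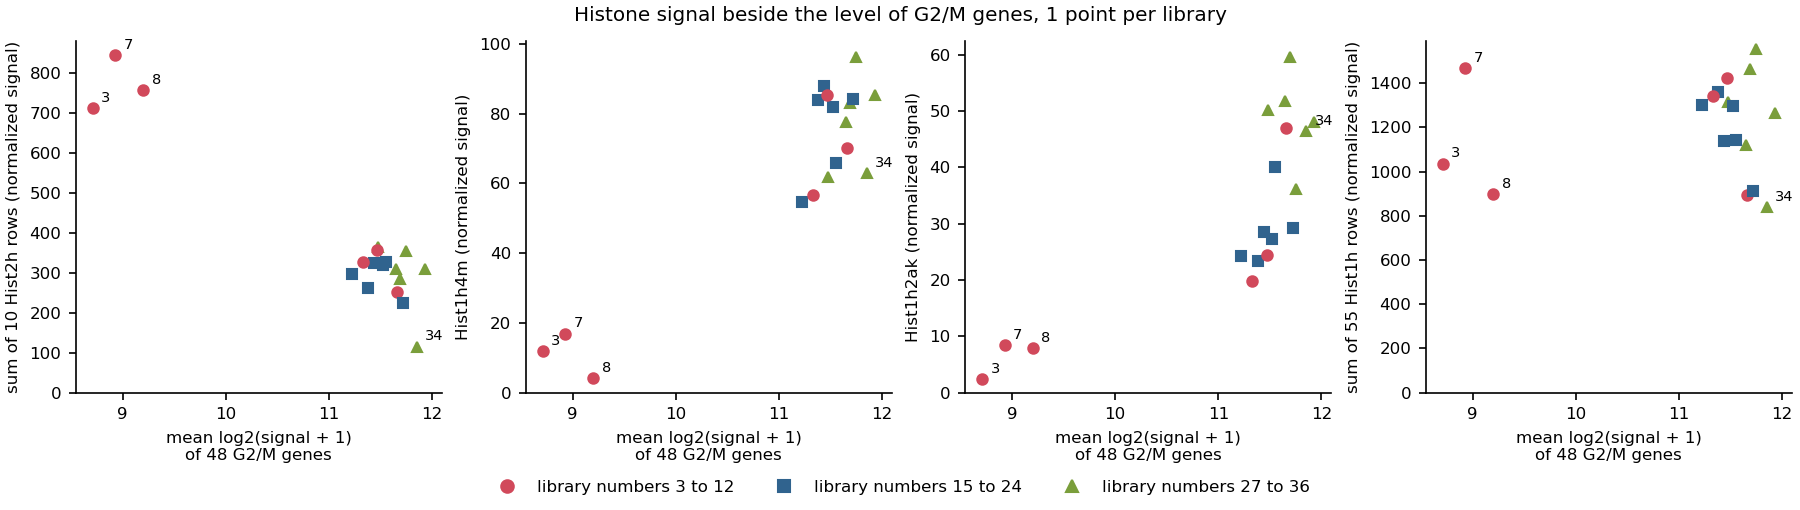
Sum of the 10 Hist2h rows, signal of Hist1h4m, signal of Hist1h2ak and sum of the 55 Hist1h rows (vertical axes, normalized signal from 0) against the mean log2(signal + 1) of 48 G2/M genes (horizontal axes), 1 point per library, with colour and shape for 3 runs of library numbers. Libraries 3, 7 and 8, at 8.71, 8.93 and 9.20 on the horizontal axis, lie apart from the other 15 at 11.22 to 11.93.

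The same 3 libraries had low values of genes of dividing cells. The mean log2(signal + 1) of 48 genes of G2 and mitosis was 8.71, 8.93 and 9.20 in libraries 3, 7 and 8 and 11.22 to 11.93 in the others, and that of 50 S phase genes was 9.14, 9.28 and 9.42 against 10.83 to 11.48. Mki67, a marker of proliferating cells, had 821.7, 993.3 and 1320 there and between 8365 and 15960 elsewhere. Slbp had 1233, 1331 and 1305 against 2606 to 3714. Markers of other cell types averaged 3.32 to 4.14 over all libraries. The part of the division genes in the histone values was not tested. KDEL cells on 1 kPa and both inhibitor groups held none of these 3 libraries.

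Shown are promoters of rows with these opposite patterns, high or low in the same libraries, and of Hist1h2bg, which followed neither. They are the 150 bases before the transcript start in RefSeq on GRCm38.p6, where 62 of the 68 rows matched, and capitals mark, on either strand, the TATAA of a TATA box, the CCAAT box and the octamer ATTTGCAT of H2B promoters. Hist1h4m lies at chr13:21811596-21811745 on the plus strand, Hist1h2ak at chr13:21753913-21754062 on the minus strand, Hist1h2bg at chr13:23571250-23571399 and Hist2h2bb at chr3:96269550-96269699, both on the plus strand.
Hist1h4m: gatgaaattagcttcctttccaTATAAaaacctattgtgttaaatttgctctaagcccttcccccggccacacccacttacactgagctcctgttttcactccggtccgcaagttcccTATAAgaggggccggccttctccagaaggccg
Hist1h2ak: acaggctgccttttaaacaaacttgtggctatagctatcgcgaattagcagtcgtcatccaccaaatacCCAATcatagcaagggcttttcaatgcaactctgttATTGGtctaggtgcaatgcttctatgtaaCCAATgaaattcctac
Hist2h2bb: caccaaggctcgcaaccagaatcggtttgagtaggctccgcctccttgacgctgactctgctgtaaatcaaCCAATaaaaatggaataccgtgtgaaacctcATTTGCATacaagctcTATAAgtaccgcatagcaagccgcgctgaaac
Hist1h2bg: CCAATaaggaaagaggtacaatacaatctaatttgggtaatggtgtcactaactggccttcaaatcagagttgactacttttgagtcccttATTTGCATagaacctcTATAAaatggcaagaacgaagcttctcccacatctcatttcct

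TATAA was present in 34 of the 62 histone promoters, or 54.8%, against 14.2% of all 32851 promoters of this length. CCAAT was present in 51, or 82.3%, against 24.5%, and the octamer in 11, or 17.7%, against 0.998%. Hist2h2bb and Hist1h2bg, both H2B genes, hold the octamer and a TATAA that starts 32 and 43 bases before the transcript start. Hist1h4m holds 2 TATAA matches and none of the others, and Hist1h2ak 3 CCAAT matches and no TATAA. The rows shown were chosen from their values, and whether any of these motifs bears on the patterns was not tested. A match is a description of these letters and not of binding.

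No histone row was called in any comparison. Calling a gene took both a p under 0.05 in limma after Benjamini-Hochberg adjustment over the 16021 genes tested, 62 of them histone rows, and group means of log2(signal + 1) that were 2-fold or more apart. For SUN1L against KDEL cells the background of called genes was 0.0874% on 1 kPa and 0.0624% on 308 kPa. It was 0% for both comparisons of the rigidities, for the interaction at a Bonferroni-corrected p, and for both inhibitors. The 0 calls among histone rows are therefore what most genes of the table show too. At an unadjusted p under 0.05 limma gave 3 histone rows for SUN1L on 1 kPa, 1 on 308 kPa, 2 for rigidity in KDEL cells, 1 for rigidity in SUN1L cells, 0 for the interaction, 5 for Y27 and 2 for blebbistatin. The share of all genes at this unadjusted limit is not given here. These counts, and those given further below at the same limit, are therefore not read as a result. With 3 libraries against 3, the exact permutation test of 1 gene cannot go below 0.1.

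**Figure D4:**
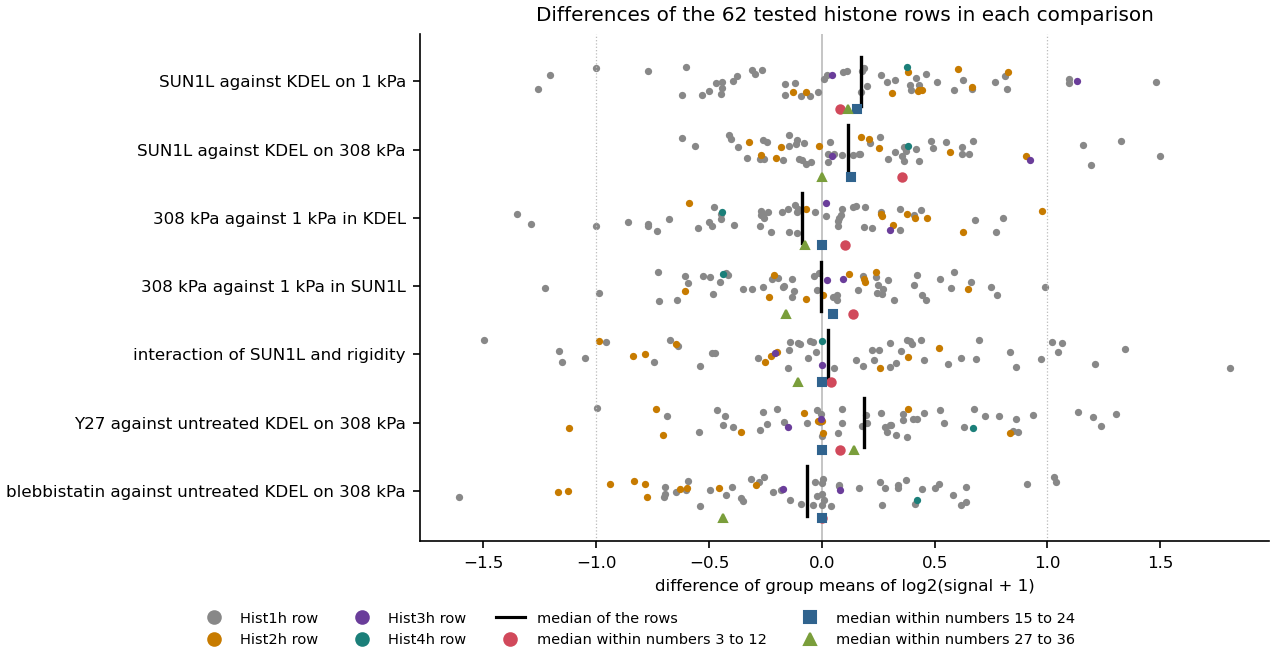
Difference of group means of log2(signal + 1) (horizontal axis) of the 62 tested histone rows in 7 comparisons, 1 point per row coloured by cluster; the black bar is their median and the larger symbols are medians within 3 runs of library numbers with 1 library per group. Dotted lines mark 2-fold, medians lie between -0.09 and 0.19, and the Hist2h rows lie left of 0 for blebbistatin.

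In the median over the histone rows, SUN1L cells differed little from KDEL cells. On 1 kPa, 37 rows were higher and 25 lower, with a median difference of 0.18 on the log2 scale against -0.01 over all genes tested, and the smallest adjusted p was 0.930. Within the 3 runs of library numbers, which hold 1 library of each group, the median was 0.08, 0.16 and 0.12. On 308 kPa 37 were also higher and 25 lower, with a median of 0.12 against -0.03, and 0.36, 0.13 and 0.00 within runs. Without the libraries numbered 3 to 12 the median was 0.07 on both gels. At least 2-fold apart were 7 of the 62 rows on 1 kPa, 4 higher and 3 lower, a larger share than the 4.86% of all genes. On 308 kPa they were 4 rows, all higher, also a larger share than the 2.65% of all genes. These shares were not tested, and many histone rows rest on a few read pairs. The median of the rows in single libraries had a pooled SD within groups of 0.264, which leaves the runs out of account.

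Hist1h4j, an H4 gene on chromosome 13 from 21735064 to 21735837 (ENSMUSG00000067455), was the row whose groups did not overlap on either gel. It had 5.628, 5.09 and 15.22 in KDEL cells and 23.35, 15.32 and 34.68 in SUN1L cells on 1 kPa. On 308 kPa it had 14.06, 2.232 and 9.704 in KDEL cells and 25.52, 16.16 and 17.12 in SUN1L cells. All 6 SUN1L values lay above all 6 KDEL values, 15.32 above 15.22 at the closest. With Y27 and blebbistatin the KDEL cells had 8.438, 6.314, 6.452 and 5.96, 10.08, 2.212, in the same low range. The difference was 1.48 ± 0.59 (SE) on 1 kPa with an adjusted p of 0.930 in limma, and 0.97 to 1.93 with adjusted p of 0.282 to 1 over the alternatives. On 308 kPa it was 1.33 ± 0.59 with an adjusted p of 1, and 0.67 to 1.78 with 0.741 to 1 over the alternatives. Within runs it was 1.88, 1.42 and 1.14 on 1 kPa and 0.82, 2.41 and 0.76 on 308 kPa. The row was named because its groups did not overlap, so a higher value with SUN1L in each of 6 pairs follows from that choice. Of all genes, 16.2% on 1 kPa and 10% on 308 kPa were higher in all 3 runs. Hist1h4j did not pass the test.

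Hist3h2a, an H2A gene of the small cluster on chromosome 11 (58954685 to 58956830, ENSMUSG00000078851), had 12.19, 8.89 and 16.37 in KDEL and 29.08, 28.33 and 25.94 in SUN1L cells on 1 kPa, without overlap. On 308 kPa it had 23.02, 20.42 and 7.243 against 44.89, 31.87 and 18.19, where the groups overlapped. The difference was 1.13 ± 0.46 (SE) on 1 kPa with an adjusted p of 0.930 in limma, and 0.82 to 1.33 with 0.333 to 1 over the alternatives. It was 0.92 ± 0.46 on 308 kPa with an adjusted p of 1 in limma. Each run showed the same direction on both gels, which on 1 kPa follows from the lack of overlap. Hist4h4, the row of chromosome 6, had 18.55, 15.13 and 20.76 against 32.04, 14.16 and 29.15 on 1 kPa and 16.08, 6.953 and 19.11 against 22.96, 9.532 and 22.98 on 308 kPa, with overlap on both.

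Hist1h4m had 70.05, 87.75 and 96.22 in KDEL cells and 11.81, 54.6 and 61.86 in SUN1L cells on 1 kPa, so that SUN1L cells were lower without overlap. The difference was -1.26 ± 1.07 (SE) with an adjusted p of 0.930 in limma, and -1.67 to -0.52 with 0.373 to 1 over the alternatives. Within runs it was -2.47 in that of library 3 and -0.68 and -0.63 in the others. Without library 3, in which transcripts of dividing cells were low, it was -0.52 with an adjusted p of 1.

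In these comparisons of SUN1L, the shares of histone rows whose groups did not overlap were below those of all genes, a difference that was not tested. On 1 kPa, 3 of the 62 were higher with SUN1L, or 4.84% beside a background of 6.65%, namely Hist1h4j, Hist3h2a and the low row Hist2h2aa2. Lower were 2, Hist1h4m and Hist1h3h, or 3.23% beside 7.86%. On 308 kPa only Hist1h4j was higher, or 1.61% beside 1.95%, and 0 were lower beside 2.33%. Hist1h3h, named after its values were seen, lay between 1 and 5.412 on 1 kPa.

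By class, H4 genes were higher in SUN1L cells in 10 of 13 rows on 1 kPa with a median of 0.20 and in 12 of 13 on 308 kPa with a median of 0.55. H2A genes were higher in 11 of 16 rows with a median of 0.44 on 1 kPa and in 9 of 16 with a median of 0.08 on 308 kPa, while 48.1% and 42.9% of all genes were higher. The H4 total of single libraries on 308 kPa was 333.5, 391.3 and 310.4 in SUN1L cells against 286.1, 244.3 and 282.4 in KDEL cells, without overlap. On 1 kPa it was 332.1, 296.4 and 307.1 against 255.6, 303.3 and 342.9, with overlap. The H2A total separated the groups on 1 kPa, at 209.6, 167.8 and 208.7 against 147.8, 151.8 and 161.6, but not on 308 kPa. H2B and H3 rows were split, with 7 of 15 and 4 of 12 higher on 308 kPa. On 308 kPa, leaving out library 8 gave an H4 median of 0.42 and leaving out library 7 one of 0.84. On 1 kPa the median was as low as 0.07 when library 3 was left out and 0.08 for library 16, and as high as 0.48 for library 28. These classes were looked at after the values were seen, many H4 rows share sequence, and no class was tested.

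Rigidity left no histone row called in KDEL or SUN1L cells. In KDEL cells 29 rows were higher and 33 lower on 308 kPa than on 1 kPa, with a median of -0.09 against -0.01 over all genes, and the sign of the median turned without library 8 (0.08), library 20 (0.03) or library 28 (0.07). In SUN1L cells 31 were higher and 31 lower with a median of 0.00. Without the libraries numbered 3 to 12 the medians were -0.01 in KDEL and -0.11 in SUN1L cells. At least 2-fold lower were 3 of the 62 rows in KDEL cells, a larger share than the 2.18% of all genes in either direction. In SUN1L cells it was 1 row, near the 1.44% of all genes. Hist1h4m was among the former with -1.35, but its values of 70.05, 87.75 and 96.22 on 1 kPa and 4.066, 83.98 and 85.21 on 308 kPa overlapped, with library 8 far below the rest, and within the other runs the difference was -0.06 and -0.17.

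Groups without overlap were again few. In KDEL cells the low row Hist2h3b was higher on 308 kPa, at 5.407, 2.458 and 2.940 against 1.876, 1 and 1, which is 1.61% of rows beside a background of 2.13%, and 0 were lower beside 2.65%. In SUN1L cells Hist1h3i and Hist2h3c2 were higher, or 3.23% beside 1.69%, and Hist1h2ac, Hist1h3e and Hist1h4b lower, or 4.84% beside 3.08%. Hist2h3c2, an H3 gene (chromosome 3, 96238108 to 96239127, ENSMUSG00000081058), had 30.82, 15.32 and 26.44 on 1 kPa and 40.09, 35.17 and 35.72 on 308 kPa. The difference was 0.65 ± 0.41 (SE) with an adjusted p of 1 in limma and 0.36 to 0.84 over the alternatives. Hist2h3c1, the H3 row with the highest mean, had 46.69, 40 and 39.92 against 87.96, 34.8 and 31.16 in SUN1L cells and 29.08, 61.96 and 47.98 against 94.08, 41.3 and 43.62 in KDEL cells, with libraries 7 and 8 on top.

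The H4 rows of KDEL cells were lower on the stiff gel in 12 of 13 cases with a median of -0.44, where 47.5% of all genes were higher. This comparison shares the KDEL libraries on 308 kPa with the SUN1L comparison on that gel and with both inhibitors, so the directions are not independent. In SUN1L cells 5 of 13 H4 rows were higher and 8 lower, with a median of -0.03. Without library 28 the count in KDEL cells was 8 of 13 lower, with a median of -0.27.

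The interaction asks whether the difference between SUN1L and KDEL cells was another on the stiff than on the soft gel. Among histone rows 33 were above 0 and 29 below, with a median of 0.03 against 0.00 over all genes, and the smallest adjusted p was 1. At least 2-fold were 10 of the 62 rows, 6 above and 4 below 0, a larger share than the 4.94% of all genes, which was not tested. The sign of the median turned without library 7 or library 8 (-0.01 each), without library 28 (-0.04) and without the libraries numbered 3 to 12 (-0.13).

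With Y27, 36 histone rows were higher and 25 lower than in untreated KDEL cells on 308 kPa, with a median of 0.19 against 0.01 over all genes and a smallest adjusted p of 0.707. Within runs the median was 0.08, 0.00 and 0.14. Of the 62 rows 5 were at least 2-fold apart, 4 higher and 1 lower, a larger share than the 3.65% of all genes, which was not tested. Groups did not overlap for 4 higher rows, or 6.45% beside 4.95%, and for 2 lower rows, or 3.23% beside 3.62%. All of them averaged under 10 and were singled out from their values, Hist1h2ag, Hist1h2bp, Hist1h3e and Hist1h4c as higher, and Hist2h2ab and Hist2h3b as lower. Hist1h2ag had 5.271, 3.157 and 4.301 with Y27 and no more than 1.960 without, a difference of 1.14 ± 0.25 (SE) with an adjusted p of 0.707 in limma, near the floor of the table.

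H4 rows were higher with Y27 in 11 of 13 cases with a median of 0.45, beside 50.9% of all genes. The H4 total was 292.6, 348.0 and 314.3 against 286.1, 244.3 and 282.4 in untreated cells, without overlap, and without library 8 the count and the median were the same. Hist1h4m differed by 1.24 between the group means, but by 4.09 in the run of library 8 and by -0.34 and -0.04 in the others. H2B rows were lower in 11 of 15 cases with a median of -0.28. None of these rows was called.

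With blebbistatin, 25 rows were higher and 35 lower, with a median of -0.07 against 0.00 and a smallest adjusted p of 0.890. Within runs it was 0.00, 0.00 and -0.44, the last in the run of library 34, and without library 34 it was -0.07, with 24 rows higher, 38 lower, 0 called and 1 at an unadjusted p under 0.05 in limma. At least 2-fold apart were 5 of the 62 rows, 2 higher and 3 lower, a larger share than the 3.26% of all genes, which was not tested. Without library 34 they were 2 rows. Groups did not overlap for 1 higher row, Hist1h3e, or 1.61% beside 3.66%, and for 1 lower row, Hist1h2ab, or 1.61% beside 3.55%. Hist1h3e had 9.924, 10.00 and 12.46 against 6.120, 1.967 and 7.832. Hist1h2ab, an H2A gene, was listed at 1 in all 3 libraries with blebbistatin and had 4.358, 4.120 and 7.263 in untreated cells, where limma gave an unadjusted p of 0.000699 and an adjusted p of 0.890. Both rows were singled out from their values.

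The 10 Hist2h rows were all lower with blebbistatin, by a median of -0.78 (range -1.17 to -0.29), and none was called. Their total was 327.4, 224.1 and 115.2 against 758.4, 262.5 and 309.0 in untreated cells, so the groups overlapped, with library 8 high and library 34 low. Without library 8 the median was -0.40 with 8 of 10 lower, and without library 34 it was -0.40 with 9 of 10 lower. Hist2h2be, for example, had 107.5, 86.5 and 51.13 against 289.3, 102.6 and 114.9. Hist2h3c2 had 31.57, 18.15 and 8.161 against 37.31, 37.26 and 21.07. The Hist2h median was -0.05 with Y27 against the same untreated libraries, and the difference between the inhibitors was not tested.

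The totals of 3 classes lay below untreated cells in every library with blebbistatin. H2A summed to 116.1, 126.6 and 133.7 against 141.2, 150.6 and 173.5, H3 to 136.6, 99.21 and 79.71 against 180.1, 141.7 and 141.6, and H4 to 243.1, 241.6 and 212.6 against 286.1, 244.3 and 282.4. Without library 34 these groups did not overlap either, though the H4 totals came as close as 243.1 and 244.3. The H1 total was 610.1, 207 and 271.7 against 302.4, 353.5 and 411.9. Over all 6 comparisons of groups and 5 classes, 30 totals were compared and 6 did not overlap. They were chosen from the values and carry no test, and by single rows H4 was even, with 5 higher and 7 lower.

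On 1 kPa the Hist2h rows were higher in SUN1L cells in 8 of 10 cases with a median of 0.43, and in KDEL cells higher on 308 kPa than on 1 kPa in 8 of 10 with a median of 0.35. Without library 3 the former was 0.12 with 6 of 10 higher, and without library 8 the latter was 0.07 with 6 of 10 higher. On 308 kPa the median for SUN1L was 0.08, and no direction held when 1 library was left out: it was -0.27 without library 7, -0.20 without library 20 and -0.11 without library 32, but 0.42 without library 8, 0.32 without library 19 and 0.31 without library 31.

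The genes that make, process and package histones were not called either. Of 27 genes of histone mRNA transcription and 3′ processing tested, 0 were called in each of the 7 comparisons by limma and 1, Ncbp1 with Y27, had an unadjusted p under 0.05. Their median was -0.14 for SUN1L on 1 kPa, -0.04 on 308 kPa, 0.13 with Y27 and 0.06 with blebbistatin. Slbp had 2894, 2825 and 3211 in KDEL and 1233, 2606 and 2606 in SUN1L cells on 1 kPa, a difference of -0.55 ± 0.40 (SE) with an adjusted p of 0.930 in limma. Npat, the coactivator of histone transcription in S phase, differed by -0.26 and its partner Casp8ap2 by -0.43. The mean log2(signal + 1) of the 27 genes was 10.49 in library 3 and 10.77 and 10.83 in the other SUN1L libraries on 1 kPa. In KDEL cells on 1 kPa it was 10.79 to 10.92.

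Of 26 histone chaperones and chromatin assembly genes, 0 were called and 2 had an unadjusted p under 0.05 in limma, both with Y27. Their median was -0.19 for SUN1L on 1 kPa and 0.01 on 308 kPa. Asf1b, a chaperone of H3 and H4, differed by -1.06 on 1 kPa, Nasp by -0.78 and Chaf1a, a subunit of chromatin assembly factor 1, by -0.55. The mean log2(signal + 1) of the 26 genes was 11.37 in library 3 and 11.99 and 12.12 in the other SUN1L libraries on 1 kPa. KDEL cells on 1 kPa had 12.02 to 12.20, so most of the difference of this mean lay in library 3. Of 13 replication-independent variants tested 0 were called, with 0 at an unadjusted p under 0.05 in limma, and the median was -0.19 on 1 kPa, -0.07 on 308 kPa and 0.32 with Y27. H2afz, a variant of H2A, differed by -0.60 on 1 kPa, H2afx by -0.50 and H3f3b, which encodes H3.3, by 0.14. The mean log2(signal + 1) of the 13 variants was 9.27 in library 3 and 9.56 and 9.93 in the other SUN1L libraries on 1 kPa. In KDEL cells on 1 kPa it was 9.69 to 9.98. H2afz and H3f3b have polyadenylated mRNAs, and their signals were of another order than those of the histone rows: H2afz had 4610 to 16470 and H3f3b 17160 to 28010.

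The S phase genes, with 0 of 50 called and 0 at an unadjusted p under 0.05 in limma, were lower in SUN1L cells on 1 kPa in 50 of 50 cases with a median of -0.77, where the histone rows had 0.18. With Y27 and blebbistatin they had medians of 0.53 and 0.64, where the histone rows had 0.19 and -0.07. The mean log2(signal + 1) of the S phase genes was 11.19, 10.96 and 11.25 in KDEL and 9.14, 10.83 and 11.10 in SUN1L cells on 1 kPa, so that most of the difference lay in library 3. In untreated KDEL cells on 308 kPa it was 9.42, 10.89 and 11.46, and no library with Y27 or blebbistatin lay below 10.95. Pcna differed by -0.76, Mcm2 by -0.70 and Rrm2 by -1.31 on 1 kPa, and none passed the test. The G2/M genes had medians of -1.20, 0.83 and 0.86 in the same comparisons, with 0 of 48 called and 0 at an unadjusted p under 0.05. On 308 kPa SUN1L cells had medians of -0.06 for S phase and -0.15 for G2/M genes, and 0.12 for the histone rows. The histone rows of these poly(A)-selected libraries and the genes of DNA replication thus had medians on opposite sides of 0 in SUN1L cells on 1 kPa, while neither list held a called gene. The histone median of 0.18 was smaller than the pooled SD within groups of 0.264 for single libraries. It was 0.07 to 0.29 with a library left out and smaller under quantile normalization, so its side of 0 is uncertain. The difference between the lists was not tested.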

How the data were processed

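RNA was isolated with oligo d(T) beads and sequenced as paired-end reads of 50 bases. The authors aligned reads with TopHat 2.0 to mm9 per the methods, removed reads with a base quality under 30, an alignment score under 95 or a mapping quality under 40, bad mates and duplicates, and deposited TMM-normalized signal from AvadisNGS. The positions in the table lie on GRCm38. The signal is not in whole reads, is not divided by length and has a floor of 1, so low rows understate differences. Library 34 was matched to a column with the number 35 by its heading, which equals 1 of its labels.

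From these values, log2(value + 1) of genes above 1 in at least 3 of 18 libraries was tested in limma 3.58.1 (R 4.3.3) with a trend, two-sided, with 1 mean per group: 12 untreated libraries for SUN1L and rigidity, and 9 for the inhibitors. The model was tested on simulated data. Intervals of values are SD over libraries unless named SE. Histone rows named in the text are the 8 with the highest means, the leading row of each class and cluster, and up to 4 rows per comparison with a mean of at least 10 whose groups do not overlap. The members and lists were chosen with earlier results of these data known. Alternatives were other filters, pseudocounts, quantile normalization, all libraries in 1 fit, no trend, a block on runs, no fold limit and leaving out libraries. Transcripts are from GENCODE M1 and promoters from RefSeq.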

Additional observations from a re-analysis of the deposited data

How the results depend on the processing

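The number of histone rows above the limit in all 18 libraries, 33 at a signal over 1, was 16 at a limit of at least 5 and 9 at 10, and in at least 3 libraries 32 at 10. No histone row was called under any alternative, including each library left out, where the counts stayed at 0 to 0. With a library left out, the median of the histone rows was 0.07 to 0.29 for SUN1L on 1 kPa, 0.05 to 0.18 on 308 kPa, -0.14 to 0.08 for rigidity in KDEL and -0.07 to 0.05 in SUN1L cells, -0.04 to 0.13 for the interaction, 0.06 to 0.27 for Y27 and -0.17 to -0.07 for blebbistatin. Under quantile normalization it was 0.03 for SUN1L on 1 kPa and 0.01 on 308 kPa. The Hist2h median with blebbistatin, looked at after the data were seen, was -0.46 with a pseudocount of 8, -1.08 without library 10 and -0.40 without library 8 or 34. The labels number no replicates. Libraries of the same run of serial numbers deviated from their group means together in most cases. The median correlation was 0.287 over 45 pairs of the same run, against -0.106 over 90 pairs of other runs. It was over 0.1 in 41 of the former and 2 of the latter. Only 4 pairs of the same run were not over 0.1. The main fit nevertheless assumed no pairing, so a shared deviation of runs stays in the spread behind its SE and p. With the replicate block on runs, 0 histone rows were called, and the share of all genes called in that fit is not given here. Depth limits the 45 rows with a mean under 10 most.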
